A study of Mus musculus with 6 samples.

Results

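The genes described here are 10 molecular chaperones of the heat shock response in the mouse, taken by name from a fixed list after Ensembl gene identifiers were matched to symbols. All 10 were among the 55487 genes counted, and all 10 passed the filter on low counts that left 15707 genes for testing. The list holds 6 members counted here as stress-inducible (Hspa1a, Hspa1b, Hsph1, Dnajb1, Bag3 and Hsp90aa1) and 4 counted as constitutive (Hspa8, Dnaja1, Hspd1 and Hspe1). The division is one of degree, since Dnaja1, Hspd1 and Hspe1 are abundant in unstressed cells and are also known targets of heat shock factor 1. RNA came from Cd11b-selected non-myocyte cells of C57BL/6 mouse hearts, in 3 pools labelled WT (Egfr f/f, floxed Egfr without deletion) and 3 pools labelled KO (Egfr mKO, Egfr deleted in myeloid cells). The titles list 5 numbers, read here as animals, for 5 of the pools and 6 for KO replicate 3. They name no treatment and no age, and the promoter that drives the deletion is not given in the sources used here. The question was how loss of the epidermal growth factor receptor in myeloid cells alters expression in this preparation.

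Chaperones hold unfolded proteins and help them to fold. The HSP70 proteins bind short stretches of client protein under the control of J-domain partners (Dnaja1, Dnajb1), which load the client, and of nucleotide exchange factors (Hsph1, Bag3), which release it. HSP90 finishes the folding of kinases and steroid receptors, and the mitochondrial chaperonin HSP60 (Hspd1) with its lid HSP10 (Hspe1) folds imported proteins in the matrix. Under stress, heat shock factor 1 binds heat shock elements, which are inverted repeats of GAA and TTC, and switches on the inducible members. Enzymatic dissociation of tissue is known to induce heat shock and immediate early genes, and how these hearts were dissociated is not stated in their labels.

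The libraries held 17780707 to 27485129 reads in genes, and the least counted member, Hspe1, was counted 652 to 1628 times. Levels are CPM, read counts scaled to a common library total after trimmed mean of M-values (TMM) normalization, given as mean ± SD over 3 pools. Egfr was at 47.5 ± 6.29 CPM in the WT pools and 17.3 ± 1.29 CPM in the KO pools, and all 3 KO pools lay below all 3 WT pools, as their labels say. The myeloid marker Itgam and 14 other macrophage markers were present in every pool, with a summed level of 9011 to 15872 CPM in WT and 15689 to 16508 CPM in KO. Endothelial, mural and fibroblast markers were present too (33 genes, 7155 to 15153 CPM in WT and 5073 to 5772 CPM in KO). In such a mixture fewer cells of a type and less RNA per cell cannot be told apart. WT replicate 1 and KO replicate 1 expressed 4 Y-linked genes (summed 240 and 234 CPM) and the other pools did not (at most 0.938 CPM), so each group held 1 pool with and 2 pools without Y-linked RNA.

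All 10 chaperones had positive estimates for KO against WT, a sign shared by 50.8% of all genes, but no member passed the test over all genes. The log2 fold changes (KO against WT) ran from 0.01 for Bag3 to 1.34 for Hsph1, with a median of 0.58, beside a median of 0.01 over all 15707 genes. In edgeR 0 of 10 members were called at an adjusted p under 0.05, where 0.0127% of all genes were called (2 genes, both lower). At an unadjusted p under 0.05, 4 members were higher (Hspe1, Hspd1, Hsph1 and Dnaja1), against 4.77% of all genes. Limma-voom called 0 members. DESeq2 called 3 higher (Hsph1, Hspd1 and Hspe1), against 1.08% of its genes, and edgeR with no filter on low counts called the same 3, against 0.479%. In these 3 members all KO pools lay above all WT pools, a pattern shown by 9.59% of genes. Leaving out WT replicate 1 gave 1 call, Hspe1, against 2.33% of genes called higher.

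**Figure D1:**
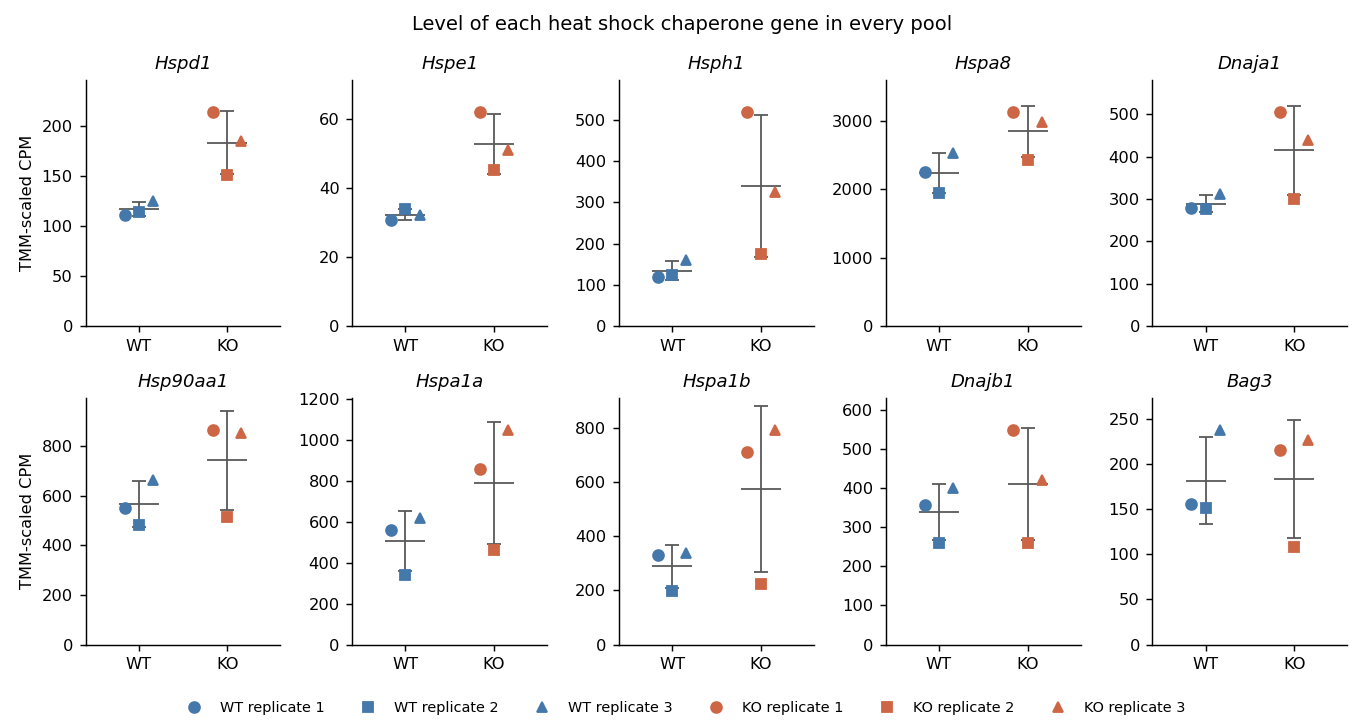
TMM-scaled CPM (vertical axes, each from 0) of the 10 genes in 3 WT and 3 KO pools. Points are pools, with the symbol giving the replicate number, and the line and bar are the mean and SD. In the first 3 panels (Hspd1, Hspe1 and Hsph1) the groups do not overlap, and KO replicate 2 is the lowest KO pool in every panel.

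The mitochondrial chaperonin pair, both higher in all KO pools, had the smallest SEs of the 10. Hspd1, which encodes HSP60, was at 111, 114 and 125 CPM in WT replicates 1 to 3 and at 214, 151 and 185 CPM in KO replicates 1 to 3. The lowest KO pool thus lay above the highest WT pool, and the mean was 1.57-fold higher. Its log2 estimate was 0.65 (SE 0.15, adjusted p = 0.181 by edgeR). Hspe1, which encodes HSP10, was at 30.9, 34.0 and 32.2 CPM in the WT pools and at 62.2, 45.2 and 51.2 CPM in the KO pools, again with no overlap. Its log2 estimate was 0.71 (SE 0.14, adjusted p = 0.158 by edgeR), a mean 1.63-fold higher. Within a pool the ratio of Hspd1 to Hspe1 CPM stayed between 3.33 and 3.89 and the groups overlapped in it.

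The pair is neighbouring on chromosome 1 of GRCm38 and is read in opposite directions from a shared start region. In the GENCODE M21 annotation Hspd1 (ENSMUSG00000025980) spans 55077835 to 55088243 on the minus strand and Hspe1 (ENSMUSG00000073676) spans 55088132 to 55091307 on the plus strand. RefSeq promoter windows of 300 bases (250 before to 50 after a start, GRCm38.p6) were searched for the repeats of a heat shock element. The unit of 2 repeats was GAANNTTC or TTCNNGAA, which each read the same on both strands. Runs of 3 repeats extend a unit by NNGAA or NNTTC so that the repeats alternate, on either strand, and runs of 4 extend it once more. Each longer motif contains the shorter ones. Of 2 Hspd1 windows, 1 holds no repeats and shares 4 bases with the Hspe1 window. The other shares 285 bases with it, and both hold the same 4 repeats, a run found in the windows of 8 of 27025 genes (0.0296%). The stretch is shown because it lies between the RefSeq starts of this pair of windows, read here in the direction of each gene, with the repeats in capitals. The repeats begin 144 bases before that Hspd1 start and 89 bases before that of Hspe1, and GENCODE also places them in an exon of an Hspd1 transcript.
Hspd1, chr1:55088053-55088082, minus strand: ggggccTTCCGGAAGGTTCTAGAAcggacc
Hspe1, chr1:55088053-55088082, plus strand: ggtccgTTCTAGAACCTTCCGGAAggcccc

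Hsph1 had the largest fold change of the 10. It encodes HSP110, a large relative of HSP70 that resets HSP70 by exchanging its nucleotide. Its level was 118, 124 and 161 CPM in the WT pools and 519, 175 and 325 CPM in the KO pools. All 3 KO pools lay above the WT pools, KO replicate 2 by a small margin and KO replicate 1 at 3.87 times the WT mean. The estimate was 1.34 on the log2 scale (SE 0.36, adjusted p = 0.199 by edgeR), and it was 0.90 without KO replicate 1. Relative to Hspa8 in the same pool, Hsph1 also did not overlap, at 0.0522 to 0.0639 in WT and 0.0722 to 0.166 in KO. Relative to Hspa4, another HSP110 gene, the groups did overlap. That ratio was 0.732, 0.784 and 1.01 in the WT pools and 2.59, 0.895 and 1.72 in the KO pools. Hsph1 (ENSMUSG00000029657) lies on chromosome 5 at 149614287 to 149636376, minus strand. Both of its promoter windows hold 3 repeats, a motif in 0.603% of 32851 windows, placed after the start and within annotated exons.
Hsph1, chr5:149636280-149636308, minus strand: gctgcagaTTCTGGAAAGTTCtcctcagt

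**Figure D2:**
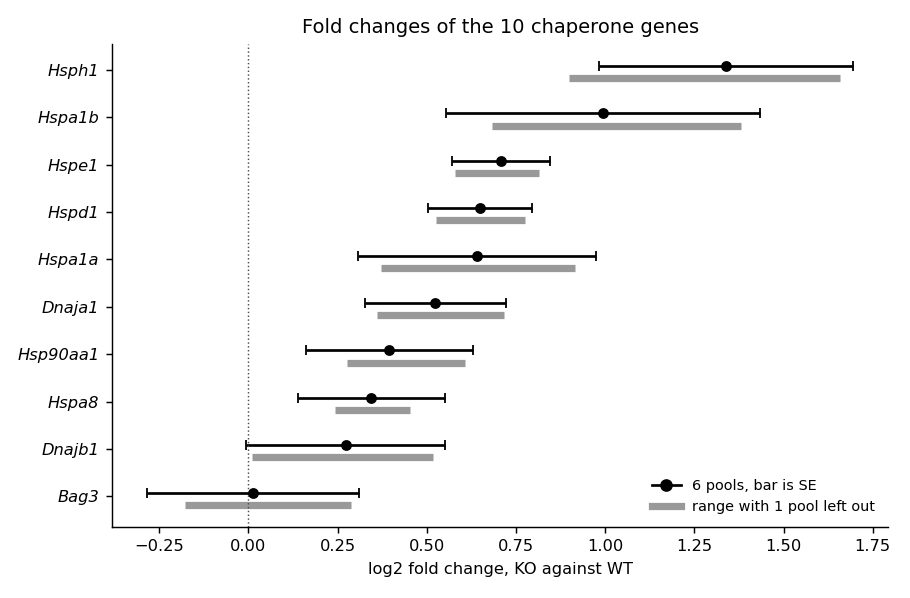
Log2 fold change, KO against WT (horizontal axis), for each of the 10 genes. Points and thin bars are the edgeR estimate and its SE over 6 pools, and thick grey bars span the 6 estimates that leave out 1 pool. Hspe1 and Hspd1 have the shortest SE bars (0.14 and 0.15), and for Bag3 the grey bar runs from -0.18 to 0.29.

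The cytosolic members Hspa8, Dnaja1 and Hsp90aa1 were higher in KO replicates 1 and 3 and near the WT pools in KO replicate 2. Hspa8 encodes the constitutive HSC70 and was the most abundant member, at 2256, 1942 and 2526 CPM in the WT pools and 3131, 2421 and 2986 CPM in the KO pools. WT replicate 3 lay above KO replicate 2, and the estimate was 0.34 on the log2 scale (SE 0.21, adjusted p = 0.468 by edgeR). Dnaja1, the farnesylated J-domain partner of HSC70, was at 279, 275 and 312 CPM in the WT pools and 506, 299 and 440 CPM in the KO pools. Here too KO replicate 2 lay inside the WT range, and the estimate was 0.52 on the log2 scale (SE 0.20, adjusted p = 0.274 by edgeR). Hsp90aa1, the stress-inducible HSP90, was at 549, 481 and 664 CPM in the WT pools and 863, 513 and 852 CPM in the KO pools, with a log2 estimate of 0.40 (SE 0.23, adjusted p = 0.461 by edgeR). Its constitutive paralog Hsp90ab1, which is no member, had 0.41 (edgeR adjusted p = 0.363). The ratio of Hsp90aa1 to Hsp90ab1 CPM was 0.264 to 0.310 in WT and 0.228 to 0.327 in KO, so the groups overlapped in it. Hspa8 (ENSMUSG00000015656) lies on chromosome 9 at 40800984 to 40810087, plus strand. Dnaja1 (ENSMUSG00000028410) lies on chromosome 4 at 40722150 to 40737149, plus strand, and 1 of its 3 windows holds a single pair of repeats. Hsp90aa1 (ENSMUSG00000021270) lies on chromosome 12 at 110690605 to 110702728, minus strand.

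The inducible HSP70 genes Hspa1a and Hspa1b differed widely between pools of 1 group. Hspa1a was at 561, 340 and 621 CPM in the WT pools and 859, 464 and 1049 CPM in the KO pools, so KO replicate 2 lay below WT replicates 1 and 3. The estimate was 0.64 on the log2 scale (SE 0.33, adjusted p = 0.405 by edgeR). Hspa1b was at 330, 198 and 340 CPM in the WT pools and 711, 225 and 792 CPM in the KO pools. KO replicates 1 and 3 were at 2.46 and 2.74 times the WT mean and KO replicate 2 at 0.778 times it, for a log2 estimate of 0.99 (SE 0.44, adjusted p = 0.337 by edgeR). Summed to 1 gene before the fit, the pair had 0.78 (edgeR adjusted p = 0.371). Both encode the same inducible HSP70, and 58.8% of 50-base windows of the Hspa1a transcript also occur in that of Hspa1b. Reads with several equally good places were left unassigned, so both levels rest on the parts that differ and how reads were split between them is uncertain. The Hspa1a to Hspa1b ratio was 1.70, 1.72 and 1.83 in WT, 1.21 and 1.32 in KO replicates 1 and 3, and 2.06 in KO replicate 2, the highest and both lowest ratios thus being in KO.

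Hspa1a (ENSMUSG00000091971) lies on chromosome 17 at 34969190 to 34972156 and Hspa1b (ENSMUSG00000090877) at 34956436 to 34959238, both on the minus strand and 9951 bases apart. Gm20481, annotated on the opposite strand of Hspa1a, had a mean of 0.670 CPM in the WT pools and 0.862 CPM in the KO pools. The 250 bases before their starts are shown because they differ at only 3 positions, although the Hspa1a to Hspa1b ratio was not constant. The pair of repeats is in capitals, a motif held by 15.1% of all promoter windows. No longer run of perfect repeats was found in these windows.
Hspa1a, chr17:34972157-34972406, minus strand: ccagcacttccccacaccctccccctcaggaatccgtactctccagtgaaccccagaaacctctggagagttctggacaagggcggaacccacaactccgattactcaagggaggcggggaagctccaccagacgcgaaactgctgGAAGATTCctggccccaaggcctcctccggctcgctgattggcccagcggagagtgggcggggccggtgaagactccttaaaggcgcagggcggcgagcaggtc
Hspa1b, chr17:34959239-34959488, minus strand: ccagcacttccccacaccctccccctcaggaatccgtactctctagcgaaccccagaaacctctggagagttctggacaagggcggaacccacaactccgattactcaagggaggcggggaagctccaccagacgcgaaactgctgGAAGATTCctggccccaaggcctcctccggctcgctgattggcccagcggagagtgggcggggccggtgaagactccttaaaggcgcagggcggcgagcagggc

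Dnajb1 and Bag3, inducible partners of HSP70, showed the smallest fold changes. Dnajb1, the inducible HSP40, was at 357, 260 and 400 CPM in the WT pools and 547, 260 and 421 CPM in the KO pools. The groups overlapped and the estimate was 0.27 on the log2 scale (SE 0.28, adjusted p = 0.690 by edgeR), or 0.01 without KO replicate 1. Bag3 links HSP70 to autophagy and to small heat shock proteins. It was at 155, 152 and 237 CPM in the WT pools and 215, 108 and 226 CPM in the KO pools, so the lowest and the second highest pool were both KO and WT replicate 3 was the highest. The estimate was 0.01 on the log2 scale (SE 0.30, adjusted p = 0.985 by edgeR), and its sign turned in 7 of the 15 other fits. Relative to Hspa8 in the same pool, Bag3 was at 0.0689 to 0.0939 in WT and 0.0446 to 0.0758 in KO. Dnajb1 (ENSMUSG00000005483) lies on chromosome 8 at 83608193 to 83612653, plus strand, and Bag3 (ENSMUSG00000030847) on chromosome 7 at 128523616 to 128546981, plus strand. Neither of the Dnajb1 windows holds a pair of perfect repeats, and the Bag3 window holds 1 pair after the start.

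Stress-inducible and constitutive members were then compared within each pool. The 6 inducible members summed to 2071, 1554 and 2422 CPM in WT and to 3714, 1745 and 3665 CPM in KO. The 4 constitutive members, mostly Hspa8, summed to 2677, 2365 and 2996 CPM in the WT pools and 3913, 2916 and 3662 CPM in the KO pools. Inducible over constitutive CPM was 0.773, 0.657 and 0.809 in WT, and 0.949, 0.598 and 1.00 in KO. KO replicates 1 and 3 had the highest ratios of all pools and KO replicate 2 the lowest, so the groups overlapped. On the log2 scale the difference of means was 0.16, less than the SD of 0.41 among KO pools. It was 0.39 without KO replicate 2, and -0.00317 when the mean log2 CPM of each class took the place of its sum. For HSP70 itself, Hspa1a plus Hspa1b over Hspa8 was 0.395, 0.277 and 0.380 in WT and 0.501, 0.285 and 0.616 in KO. The median log2 fold change was 0.52 over the inducible and 0.59 over the constitutive members. Since the members were chosen with results known, no test was made of these sums.

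**Figure D3:**
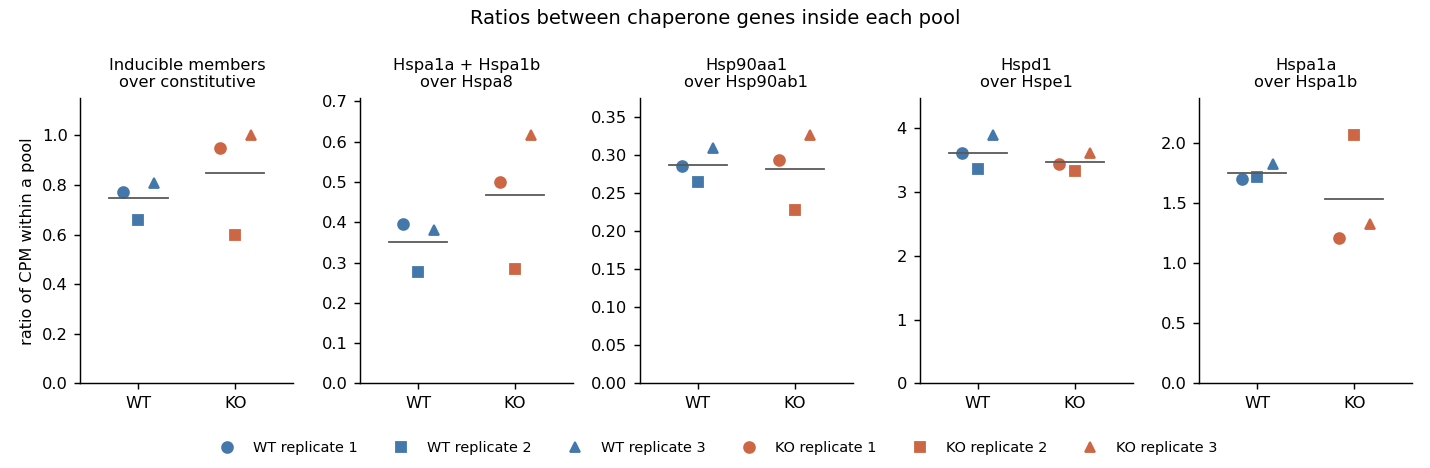
Ratios of CPM inside each pool (vertical axes, each from 0) for WT and KO. Points are pools and lines are group means. In the first panel KO replicates 1 and 3 lie above all WT pools and KO replicate 2 below them, while the Hspd1 to Hspe1 ratio stays between 3.33 and 3.89.

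The order of the pools was much alike over the members. KO replicate 2 was the lowest KO pool for all 10 members, as it was for 34.7% of all genes tested. Against the mean of KO replicates 1 and 3 it ran from 0.299 times for Hspa1b to 0.796 times for Hspe1. Against the WT mean it was above 1 for 5 members, namely the 4 constitutive ones and Hsph1, and below 1 for the other 5. KO replicates 1 and 3 were above the WT mean for all 10. Among WT pools, replicate 3 was the highest for 9 members, as it was for 37.3% of all genes, and replicate 2 the lowest for 7. In the 2 pools with Y-linked RNA, KO over WT was 1.39 for Bag3 to 4.41 for Hsph1. In the 4 pools without it the ratio of means was 0.860 for Bag3 to 1.89 for Hspa1b, above 1 for 9 of 10.

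**Figure D4:**
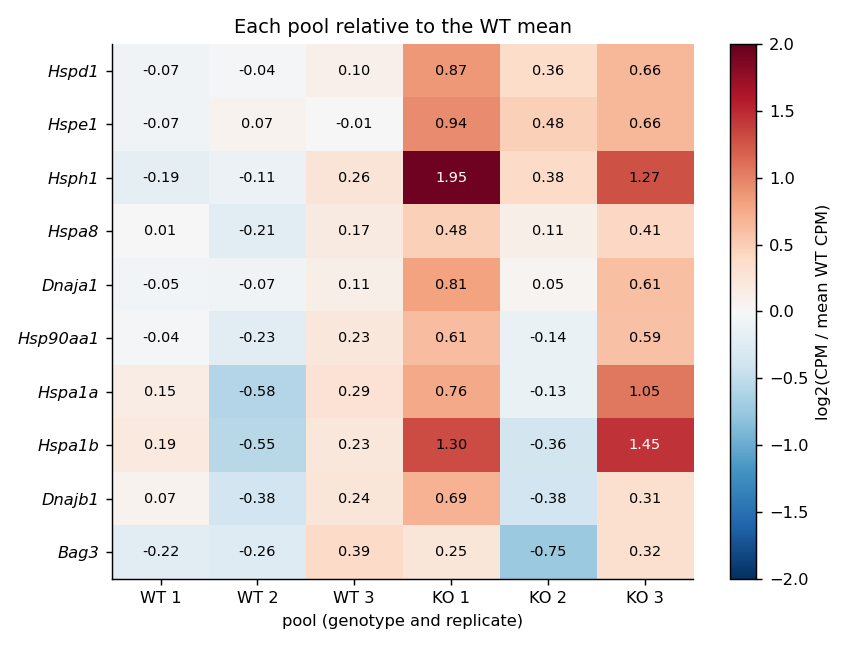
Heat map of log2(CPM over the mean WT CPM) for 10 genes (rows) in 6 pools (columns), with the value in each cell. KO replicates 1 and 3 are positive in every row, from 0.25 to 1.95, and KO replicate 2 runs from -0.75 for Bag3 to 0.48 for Hspe1.

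Other measures of the same pools are set beside this. The mean log2 CPM of 22 immediate early genes, such as Fos and Egr1, was 10.03, 9.62 and 10.09 in WT and 10.19, 9.79 and 9.80 in KO. The groups overlapped in it, and its part in the chaperone levels was not tested. Mitochondrially encoded genes took 3.21%, 4.81% and 2.79% of gene reads in WT replicates 1 to 3. In KO replicates 1 to 3 they took 2.87%, 4.06% and 2.59%. Reads that matched no counted feature were 7.10%, 8.62% and 6.28% in WT and 6.80%, 7.16% and 5.90% in KO. Replicate 2 was the highest of its group in both measures, and their part in the chaperone levels was not tested. Macrophage markers summed to 15862, 15689 and 16508 CPM in KO replicates 1 to 3. In WT replicates 1 to 3 they summed to 15872, 9011 and 10567 CPM. The joint sum of endothelial, mural and fibroblast markers was lower in every KO pool. Fibroblast markers alone (11 genes) overlapped, at 2257 to 7120 CPM in WT and 1746 to 2530 CPM in KO. B cell markers (9 genes) summed to 1075 to 1244 CPM in WT and to 1303 to 1898 CPM in KO, with no overlap. Erythroid markers summed to 1878 CPM in WT replicate 1 and to 36.2 to 142 CPM in the other pools. Neutrophil markers (10 genes) summed to 2487, 1236 and 662 CPM in WT and to 3048, 837 and 870 CPM in KO. T cell markers (8 genes) summed to 29.97, 612 and 32.2 CPM in WT and to 151, 56.5 and 241 CPM in KO. The groups overlapped in both lists, and KO replicate 2 was the lowest KO pool in both. The part of these marker sets in the chaperone levels was not tested.

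Other chaperone genes were read from lists made by function. Tested besides the 10 were 75 cytosolic and mitochondrial chaperones, co-chaperones, regulators, mitochondrial proteases and targets of heat shock factor 1. Of them 54 were positive in edgeR (50.8% of all genes were), and the median log2 value was 0.13. In edgeR 0 passed over all genes, and 14 were higher and 1 lower at an unadjusted p under 0.05. Over all 15707 genes 2409 reached that p in either direction, 749 (4.77%) of them higher. Limma-voom called 0. DESeq2 called 9 of 76 higher and 1 lower, where it called 809 of 15493 genes in either direction, 167 (1.08%) of them higher.

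Co-chaperones of HSP90 load its clients and time its ATPase cycle. Of 13 genes of HSP90 and its co-chaperones, 8 had all KO pools above all WT pools, against 9.59% of all genes, and the median log2 fold change was 0.45. Cacybp, which binds the ubiquitin ligase Siah1 and HSP90, was at 34.4, 38.6 and 37.3 CPM in the WT pools. In the KO pools it was at 80.4, 64.3 and 55.5 CPM, with a log2 estimate of 0.86 (SE 0.15, edgeR adjusted p = 0.152). Stip1, the adaptor that passes clients from HSP70 to HSP90, had 0.75 (SE 0.17, edgeR adjusted p = 0.180). Chordc1 had 0.71 and Ahsa1, the activator of the HSP90 ATPase, 0.64 (edgeR adjusted p = 0.183 and 0.175). Chordc1 was the 1 gene of 12 in this list with a promoter window holding 3 heat shock repeats.

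The cytosolic chaperonin TRiC, which folds actin and tubulin, had positive values for all 8 subunits (50.8% of all genes were positive), between 0.11 and 0.31. For 7 of them all KO pools lay above all WT pools, against 9.59% of all genes. Cct3 was at 123 ± 6.90 CPM in the WT pools and 153 ± 5.07 CPM in the KO pools (0.31, SE 0.10, edgeR adjusted p = 0.232), Cct8 had 0.25, Cct4 0.25 and Tcp1 0.22. Among HSP70 exchange and co-factors, the HSP110 relatives Hspa4l and Hspa4 had 0.63 and 0.29, and St13, which stabilises client-bound HSP70, had 0.39 (edgeR adjusted p = 0.216, 0.246 and 0.192). These 3 were named for their small p. Of the 10 genes in that list, 6 were positive, and 4 had all KO pools above all WT pools, these 3 among them, against 9.59% of all genes. Of the other HSP70 genes, Hspa2 was lower in every KO pool (56.2 ± 22.1 CPM in WT, 28.9 ± 4.41 CPM in KO, log2 fold change -0.96, edgeR adjusted p = 0.207). Hspa1l, beside Hspa1a, had 0.69 at 2.40 to 7.33 CPM. J-domain proteins had a median of 0.12 over 14 genes, with Dnajc2 at 0.30, Dnajc8 at 0.24, Dnajc7 at 0.21 and Dnajc3 at 0.19 (edgeR adjusted p from 0.310 to 0.432).

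Mitochondrial chaperones other than the pair showed little difference. Over a list of 11 genes, which also holds the proteases Lonp1 and Clpp, the median log2 fold change was 0.08. Of these, 1, Timm44, had all KO pools above all WT pools, against 9.59% of all genes (0.17, edgeR adjusted p = 0.469). Hspa9, the mitochondrial HSP70, was at 218 ± 14.7 CPM in the WT pools and 235 ± 17.0 CPM in the KO pools (0.10, SE 0.12, edgeR adjusted p = 0.725), Grpel2 had 0.14 and Trap1, the mitochondrial HSP90, 0.09. The ratio of Hspd1 to Hspa9 within a pool was 0.484 to 0.565 in WT and 0.683 to 0.931 in KO, with no overlap. Small heat shock proteins, which muscle expresses strongly, had a median of -0.47 over 6 genes, with Hspb8 at -0.74, Hspb7 at -0.63, Cryab at -0.41 and Hspb6 at -0.32 (edgeR adjusted p from 0.343 to 0.489). Hspb1, the 1 positive gene of the list, was at 90.1, 68.8 and 130 CPM in the WT pools and 154, 58.6 and 139 CPM in the KO pools (0.28, edgeR adjusted p = 0.764). Cardiomyocyte and mural markers had medians of -0.53 and -0.93 in the same pools, and their part was not tested. Hsf1, the master regulator, was at 43.5 ± 1.62 CPM in the WT pools and 47.1 ± 2.79 CPM in the KO pools (0.11, edgeR adjusted p = 0.638). Hsf2 had 0.06, Hsf4 -0.18 and Hsbp1, a binding partner of heat shock factors, 0.20.

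Of 20 known targets of heat shock factor 1, 14 of them also in other lists, 16 were positive, with a median of 0.28, and 8 had KO pools that all lay above the WT pools (9.59% of all genes), Cacybp, Ahsa1, Stip1 and Chordc1 among them. Chaperones of the endoplasmic reticulum, which answer to another stress pathway, had a median of 0.42 over 15 genes. Of these, 13 had KO pools that all lay above the WT pools, against 9.59% of all genes, with Creld2 at 0.66, Manf at 0.57, Hyou1 at 0.54, Sdf2l1 at 0.79 and the HSP70 relative Hspa5 at 0.41 (edgeR adjusted p from 0.152 to 0.432). The 22 immediate early genes had a median of 0.08 and the groups overlapped in all of them, including Klf6 at 0.31, Nr4a2 at -0.36, Egr3 at -0.34 and Fosl1 at -0.56 (edgeR adjusted p from 0.436 to 0.602).

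**Figure D5:**
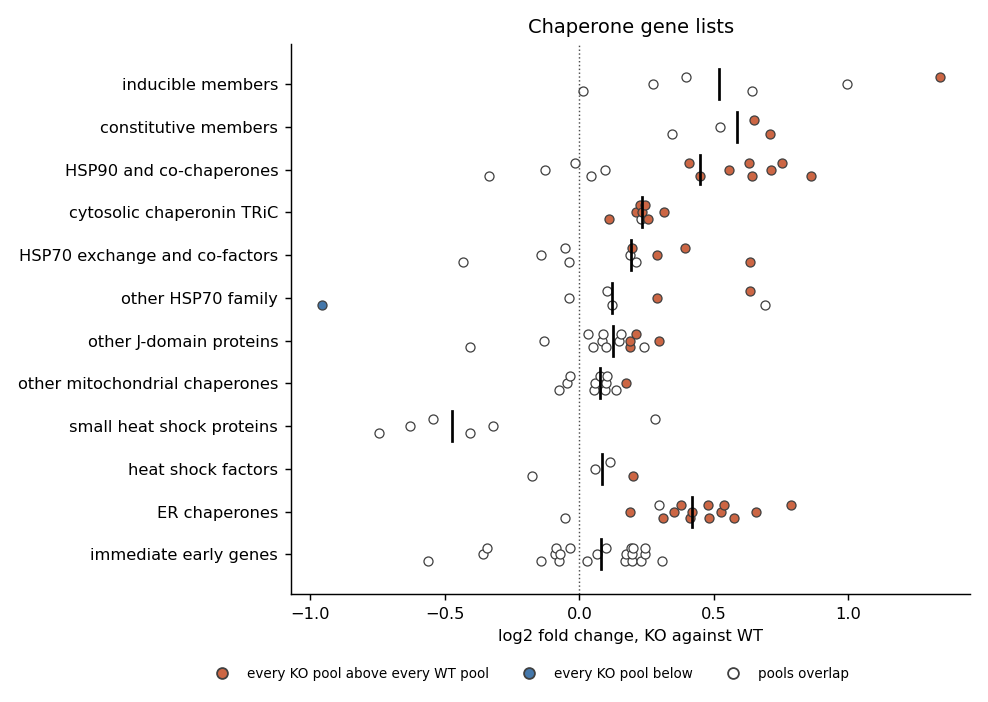
Log2 fold change, KO against WT (horizontal axis), of each tested gene in 12 lists. Vertical bars are list medians, and filled points are genes whose KO pools all lie above (orange) or below (blue) all WT pools. HSP90 partners, TRiC and endoplasmic reticulum chaperones are mostly filled, while immediate early genes are all open.

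Per kilobase of the principal transcript, Hspa8 was the most abundant member in both groups, at 936 ± 122 CPM per kilobase in WT and 1189 ± 157 in KO. Hsp90aa1 (172 ± 28.1 in WT) and Hspa1a (171 ± 49.9) came next and did not differ beyond their spread. Dnajb1 (113 ± 23.9) and Hspa1b (103 ± 28.3) followed, again within their spread of each other. Hspa1a and Hspa1b were divided by their full length, although 58.8% and 62.3% of their 50-base windows occur in the other copy. Reads that fitted both were left unassigned, so the levels of this pair may be too low and its places in this order are uncertain. Bag3 (70.8 ± 18.9), Dnaja1 (51.4 ± 3.59), Hspd1 (48.3 ± 3.05), Hspe1 (41.8 ± 2.03) and Hsph1 (35.3 ± 6.15) were lowest in WT. In KO Hsph1 was at 89.4 ± 45.4 CPM per kilobase and had passed Bag3 (71.5 ± 25.5) in the mean, within the spread of both. Divided by all annotated exons instead, Hsph1 was at 46.8 CPM per kilobase in KO and below Bag3, so that order depends on the length used.

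Genes of like pattern were sought among 9397 others with a mean of at least 10 CPM, by the Pearson r over 6 pools with the mean standardised log2 CPM of the 10 members. The 6 named genes with the highest r were Irf7 (0.97), Usp12 (0.97), Rtn3 (0.96), Sdhd (0.96), Rnf181 (0.95) and Actr1a (0.95), and 21 genes reached 0.9. Their own fold changes were small, from 0.11 for Rtn3 to 0.28 for Irf7. The 6 pools differ in genotype, depth, mitochondrial read share and marker levels together, so r only describes their order. KO replicate 1 was highest, then KO replicate 3, with KO replicate 2 among the WT pools.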

How the data were processed

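Per the labels' protocols, RNA came from RNeasy Mini columns and was made into NEBNext Ultra II Directional libraries. The deposited values are whole-number read counts per Ensembl gene, not normalized. The submitters' processing notes name STAR, HTSeq, DESeq2 and GRCm38. The sources used here give no versions, annotation release or strand setting. The 5 counters that name no gene were set aside from totals and tests. Of the reads, 5.90% to 8.62% matched no counted feature, 1.49% to 1.72% matched several genes and 7.58% to 8.67% fitted several places. Of 55487 identifiers, 55141 matched a symbol and position in GENCODE M21.

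Counts were tested with edgeR 4.0.16 in R 4.3.3 (filterByExpr with a minimum count of 10, TMM scaling, glmQLFit and glmQLFTest, genotype only, two-sided, Benjamini-Hochberg adjustment over 15707 genes, threshold 0.05). SE is the fold change over the square root of F. The common biological coefficient of variation was 0.239. Alternatives were DESeq2 1.42.0, limma-voom 3.58.1, RLE and upper quartile scaling, no filter, a mean CPM of at least 5, the replicate number as a block, Hspa1a and Hspa1b summed, and each pool left out. A term for Y-linked expression was added after seeing the data. The pool was the replicate. Counts of same-group pools differed well beyond sampling noise (chi-square per degree of freedom 38.0 to 84.1), and all 6 were kept. The fit was tested on simulated data, where it recovered 39 of 100 changes of 2-fold and 80 of 100 of 4-fold. It also called 8 unchanged genes there.

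The members and lists were chosen with earlier results of these data known. Named from each other list were up to 4 genes with the smallest p and a mean CPM of at least 1, plus Hsf1, Hsp90ab1, Hspa9 and Hspa5. Gm20481 and Hspb1 were added after their values were seen. Like genes were ranked by Pearson r as stated, passing over predicted genes. Promoter sequences are from RefSeq (GRCm38.p6), where 8 of the 10 members matched. Levels per kilobase used the principal transcript of GENCODE M21. Figures were drawn with matplotlib 3.10.9.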

Additional observations from a re-analysis of the deposited data

How the results depend on the processing

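The 10 fold changes kept their direction and stayed above an adjusted p of 0.05 under RLE and upper quartile scaling and with a term for Y-linked expression, as did the 9 left when Hspa1a and Hspa1b were summed to 1. DESeq2 called 3 members (809 genes in all) and edgeR without a filter called 3 (782 in all), in both cases Hsph1, Hspd1 and Hspe1. Limma-voom called 1 gene in all, against 2 in edgeR. Leaving out 1 pool gave 0 to 1 members and 1 to 1338 genes in all. The 1338 came without WT replicate 1, where Hspe1 passed (0.68, edgeR adjusted p = 0.0454), while omitting WT replicate 2 or 3, or else KO replicate 1 or 2, left 1 gene. For Bag3 the sign turned with limma-voom (-0.0311), a mean CPM of at least 5 (-0.0123) and the replicate block (-0.0285), and with 1 pool left out its value ran from -0.18 to 0.29, negative for 4 of 6 pools; the cause was not tested. The difference in log2 inducible over constitutive CPM ranged from 0.02 to 0.39 with 1 pool left out. Same-numbered pools gave correlations of deviations of 0.10, -0.16 and 0.01, so the numbers were not taken to pair the pools, although both pools numbered 1 held Y-linked RNA. With the replicate block 0 members and 3 genes in all were called. The least counted member had at least 652 reads in each pool.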
